A study of Mus musculus with 6 samples.

Results

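Retinal neuropeptide genes and the gene of a peptide-binding protein were followed in cells sorted to enrich retinal ganglion cells (RGCs), the neurons that send axons into the optic nerve. The 10 genes, *Npy*, *Gal*, *Penk*, *Cck*, *Tac1*, *Sst*, *Vip*, *Adcyap1*, *Crh* and *Crhbp*, were taken by name from a table of 55573 genes. All mice were C57BL/6J, and all received virus and injury. The methods describe the animals in general as adults of both sexes. The vitreous was injected with AAV2-*GFP* in the control group or AAV2-*Ezh2* in the overexpression group (*Ezh2* encodes the histone H3K27 methyltransferase of Polycomb repressive complex 2), the optic nerve was crushed 2 weeks later, and retinal cells were sorted 3 days after optic nerve crush (ONC). Each group had 3 libraries. The sort kept live CD90.2-positive cells; CD90.2 is made from *Thy1* and is also carried by T cells. No label says whether replicates came from separate mice, so p values measure the spread between these samples only.

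Neuropeptides are cut from larger precursors, stored in dense core vesicles and released to act on G protein–coupled receptors, often beside a fast transmitter in the same neuron. In the retina most of them are known from subsets of amacrine cells, the inhibitory interneurons of the inner retina, and a few from RGC subsets. *Crhbp* is the odd one out in this set: it encodes a secreted protein that binds corticotropin-releasing hormone (CRH) and keeps it from its receptor.

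Libraries held 30569933 to 35971192 counts. *Ezh2* stood at 28.8, 34.6 and 33.0 CPM (a gene's counts divided by the library's sum and scaled) in GFP replicates 1 to 3 and at 78.0, 65.3 and 104.8 CPM in Ezh2 replicates 1 to 3, in the direction of the labels. On the first principal component, which held 46.7% of the variance, GFP replicates 1 to 3 lay at -35.2, -29.3 and -33.0. Ezh2 replicates 1 and 2 lay at 10.7 and 10.2, and Ezh2 replicate 3 lay apart at 76.6. Regulatory T cell markers summed to 1985 CPM there and to 392 to 453 CPM elsewhere, and their defining gene *Foxp3* stood at 92.4 CPM in that library. The study left out 1 Ezh2 library, inferred to be Ezh2 replicate 3. The main comparison followed it and set Ezh2 replicates 1 and 2 against GFP replicates 1 to 3. Log2 fold changes of the tested members are also given from all 6 libraries. RGC markers were detected (*Rbpms* at 16.4 to 20.8 CPM), but *Pou4f1* did not pass 0.60 CPM in any library and markers of amacrine cells, glia and photoreceptors were present in every library. The cells were thus a mixture, and in such bulk samples fewer cells of a type and less RNA per cell cannot be told apart.

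The set was weakly expressed. Only 6 of the 10 genes passed the filter on low counts, and the best expressed of them, *Penk*, had a mean of 9.46 CPM over the 6 libraries, higher than 45.8% of the tested genes. Levels between genes were compared per kilobase of exon. In the GFP group *Penk* reached 5.30 CPM per kb (range 4.92 to 5.60), *Npy* 4.98 (range 4.62 to 5.23) and *Crhbp* 4.64 (range 4.03 to 4.98), so the ranges of neighbours in this order overlapped. A gap followed. *Cck* at 0.593, *Gal* at 0.573 and *Adcyap1* at 0.302 CPM per kb came next, with overlapping ranges, then *Tac1* at 0.057, *Crh* at 0.024 and *Sst* at 0.015, and *Vip* was listed at 0. In Ezh2 replicates 1 and 2 the order at the top was *Npy* at 8.50, *Penk* at 4.22 and *Crhbp* at 1.14 CPM per kb, with no overlap among the 3 genes. Ezh2 replicate 3 had another order, with *Penk* at 10.4, *Npy* at 7.56 and *Crhbp* at 0.587 CPM per kb.

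**Figure D1:**
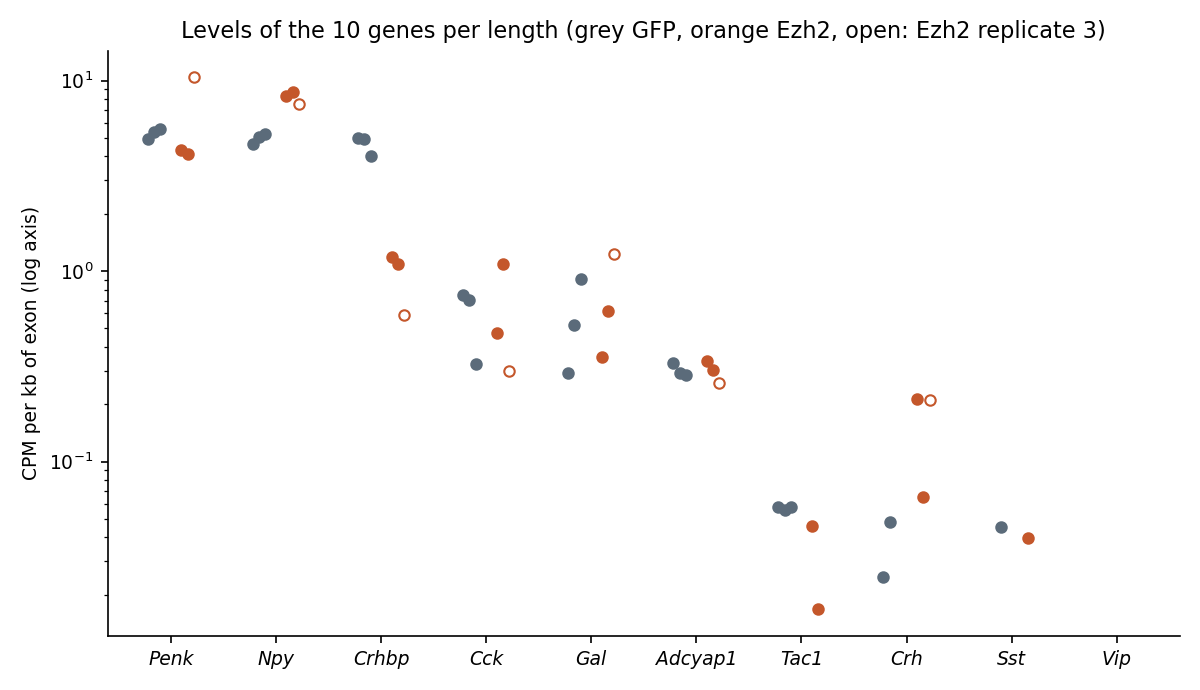
CPM per kb of exon (log axis) of the 10 genes, ordered by the GFP mean, with a point for each library. Values of 0 cannot be drawn on this axis, so *Vip* has no point. *Penk*, *Npy* and *Crhbp* overlap in the GFP libraries. *Crhbp* lies below the other two in every Ezh2 library, and *Penk* lies below *Npy* in Ezh2 replicates 1 and 2 but above it in Ezh2 replicate 3.

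Because *Crhbp* and *Npy* moved in opposite directions and *Crhr1*, the receptor gene of the CRH system, moved against *Crhbp* (values follow), the sequence before each start is shown. These are the 250 bases upstream of the RefSeq start on mouse build GRCm38.p6, written 5′ to 3′ on the gene's strand, with CG dinucleotides, the substrate of DNA methylation in mammals, in capitals. *Crhbp* lies on the minus strand (chr13:95444832-95445081), *Npy* on the plus strand (chr6:49822460-49822709) and *Crhr1* on the plus strand (chr11:104132531-104132780).
Crhbp: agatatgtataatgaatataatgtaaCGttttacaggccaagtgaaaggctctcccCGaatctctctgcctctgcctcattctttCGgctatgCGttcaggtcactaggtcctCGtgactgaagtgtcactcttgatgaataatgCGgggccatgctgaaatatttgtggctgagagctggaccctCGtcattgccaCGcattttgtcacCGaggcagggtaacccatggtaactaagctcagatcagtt
Npy: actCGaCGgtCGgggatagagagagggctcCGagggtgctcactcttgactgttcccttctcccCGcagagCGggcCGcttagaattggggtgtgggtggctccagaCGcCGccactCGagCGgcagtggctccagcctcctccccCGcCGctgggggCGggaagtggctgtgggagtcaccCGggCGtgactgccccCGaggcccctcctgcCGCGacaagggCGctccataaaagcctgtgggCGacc
Crhr1: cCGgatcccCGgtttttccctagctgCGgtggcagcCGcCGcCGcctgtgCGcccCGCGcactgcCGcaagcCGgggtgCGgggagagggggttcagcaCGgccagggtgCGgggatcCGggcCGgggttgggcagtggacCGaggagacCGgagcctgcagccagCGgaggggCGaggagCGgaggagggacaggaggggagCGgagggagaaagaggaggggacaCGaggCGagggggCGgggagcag
In the full window of 300 bases, which adds 50 bases after the start, *Crhbp* held 9 CG, *Npy* 24 and *Crhr1* 31. The median of 32817 mouse promoters was 7, and 45.8%, 20.0% and 10.6% of them held at least as many as *Crhbp*, *Npy* and *Crhr1*. These genes were chosen with their directions known, and a link between CG count and direction was not tested. The cAMP response element TGACGTCA, searched on both strands, was found in 1 of the 8 members with a sequence (*Sst*) and in 1.79% of all promoters. Its shorter core TGACG or CGTCA, which the full element contains, was found in 7 of these 8 members and in 20.8% of all promoters. *Npy* was the member without the core.

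*Crhbp* (ENSMUSG00000021680, chromosome 13, 95431371 to 95444924, minus strand, GRCm38) fell after *Ezh2* overexpression. Its counts were 274, 280 and 223 in GFP replicates 1 to 3 (8.96, 8.85 and 7.26 CPM) and 69, 69 and 38 in Ezh2 replicates 1 to 3 (2.14, 1.97 and 1.06 CPM). Every Ezh2 library lay under every GFP library, and Ezh2 replicate 3 was lowest. The mean went from 8.36 ± 0.954 CPM (SD, n = 3) in the control group to 2.06 ± 0.122 CPM in Ezh2 replicates 1 and 2 (SD, n = 2). On the log2 scale the fold change was -2.01 ± 0.19 (SE), and the adjusted p was 2.51e-06 by edgeR's quasi-likelihood test with Benjamini-Hochberg adjustment. All 6 libraries gave -2.25 ± 0.26, with an adjusted p of 0.00534 in the same test. Summed markers of amacrine cells moved in the same direction. They went from 1306 to 1355 CPM in the GFP libraries to 1153, 1120 and 971 CPM in Ezh2 replicates 1 to 3. Summed RGC markers went from 179 to 183 CPM to 214, 204 and 214 CPM. That sum includes *Thy1*, the sorted antigen, at 87.2 to 92.6 CPM in the GFP libraries. *Thy1* stood at 109, 98.9 and 114 CPM in Ezh2 replicates 1 to 3. Of 13 RGC markers tested, 3 were called higher and 0 lower, and *Rbpms2*, *Isl1* and *Gap43* were lower without a call. Of all 20241 genes tested, 2.45% were called higher and 1.27% lower (adjusted p below 0.05 and more than 1.5-fold). Summed markers of Muller glia and astrocytes moved in the direction of *Crhbp*, from 19626 to 20314 CPM to 15999, 16646 and 12984 CPM. *Glul* alone held 9540 to 9900 CPM in the GFP libraries and 6937, 6898 and 5446 CPM in the Ezh2 libraries. The 1 gene called on that list, *Gfap*, went higher (log2 fold change 1.01), and the median of the 11 tested was -0.22. Members of the amacrine list did not move as one: *Tfap2b* was called lower (log2 fold change -2.72) and *Tfap2c* higher (2.93), out of 13 tested. The part of these cell types in the fall of *Crhbp* was not tested.

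*Crh*, the ligand that CRHBP binds, was near the limit of detection. It had 1, 2 and 0 counts in the GFP libraries and 9, 3 and 10 counts in Ezh2 replicates 1 to 3. All Ezh2 libraries were above all GFP libraries, at a level where a count of 0 allows 3 counts, or 0.0834 to 0.0981 CPM. Over the pooled counts the ratio of Ezh2 replicates 1 and 2 to GFP was 5.53 (95% interval 1.49 to 30.5), and that of Ezh2 replicates 1 to 3 was 6.61 (1.98 to 34.5), intervals that cover counting error only. The gene did not pass the filter, and without a filter its adjusted p by edgeR's quasi-likelihood test was 0.449 in the 5 libraries and 0.254 in all 6.

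*Crhr1*, the main CRH receptor gene, rose. It had 13, 24 and 10 counts in the GFP libraries and 54, 63 and 63 counts in the Ezh2 libraries, without overlap. The log2 fold change was 1.79 ± 0.41 (SE; adjusted p 0.00631, edgeR's quasi-likelihood test), and with all 6 libraries 1.82 ± 0.36, with an adjusted p of 0.0301. Leaving out Ezh2 replicate 2 from the 5 libraries took the adjusted p to 0.0642, where only the GFP group gave the spread, and leaving out any 1 of GFP replicates 1 to 3 or Ezh2 replicates 1 and 2 from the 6 gave 0.0563 to 0.153. As a description, the count ratio of *Crhr1* to *Crhbp* was 0.0474, 0.0857 and 0.0448 in GFP replicates 1 to 3 and 0.783, 0.913 and 1.66 in Ezh2 replicates 1 to 3. The other receptor gene of this system, *Crhr2*, had at most 4 counts in any library. Of its related ligands, *Ucn* had at most 6 counts, and *Ucn2* had 11, 10 and 2 counts in the GFP libraries and 1, 3 and 15 in the Ezh2 libraries, with overlap and no call (log2 fold change -1.98 ± 1.07, and -0.38 ± 0.93 with all 6 libraries).

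*Npy* (ENSMUSG00000029819, chromosome 6, 49822710 to 49829507, plus strand) was the one member called higher. Neuropeptide Y is a peptide of inhibitory interneurons and of some glia and immune cells. Its counts were 80, 91 and 91 in GFP replicates 1 to 3 (2.62, 2.88 and 2.96 CPM) and 151, 173 and 154 in Ezh2 replicates 1 to 3 (4.69, 4.94 and 4.28 CPM). All Ezh2 libraries were above all GFP libraries, Ezh2 replicate 3 included. From 2.82 ± 0.179 CPM (SD, n = 3), the mean went to 4.81 ± 0.176 CPM (SD, n = 2). This corresponded to a log2 fold change of 0.78 ± 0.20 (SE; adjusted p 0.0142, edgeR's quasi-likelihood test), and 0.76 ± 0.17 with all 6 libraries, with an adjusted p of 0.0468. The direction held whichever library was left out, but the call did not: without Ezh2 replicate 2 the adjusted p was 0.106, in a fit where the spread came from the GFP group and the lone Ezh2 library was assumed to vary like it, and leaving any 1 of GFP replicates 1 to 3 or Ezh2 replicates 1 and 2 out of the 6 libraries gave 0.0909 to 0.187. Summed markers of microglia and macrophages went from 1672 to 1873 CPM in the GFP libraries to 3141, 3713 and 2465 CPM in Ezh2 replicates 1 to 3. Much of that rise was *Lyz2*, at 374, 379 and 329 CPM in GFP replicates 1 to 3. In Ezh2 replicates 1 to 3 *Lyz2* stood at 1406, 1868 and 1223 CPM. Of the 11 genes on the list, 3 were called higher and 0 lower, against 2.45% and 1.27% of all tested genes. *P2ry12*, *Siglech* and *Tmem119* had log2 fold changes of -0.07, -0.16 and 0.04, and the list's median was 0.33. The part of these cells was not tested. Rod and cone markers summed to 380 to 452 CPM in the GFP libraries and to 704, 732 and 411 CPM in Ezh2 replicates 1 to 3, and their part was not tested either.

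Thus, of the 6 members tested, 1 was called higher and 1 lower. Across all 20241 genes tested in the 5 libraries, 2.45% were called higher and 1.27% lower, calls that needed an adjusted p below 0.05 and more than a 1.5-fold difference. With all 6 libraries the members' counts were again 1 higher and 1 lower, the same 2 genes, against 1.60% higher and 0.811% lower of 19732 genes. The count ratio of *Crhbp* to *Npy* within a library was 3.43, 3.08 and 2.45 in GFP replicates 1 to 3 and 0.457, 0.399 and 0.247 in Ezh2 replicates 1 to 3. It restates the 2 calls, since these genes were paired for their opposite directions, and is no further test.

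**Figure D2:**
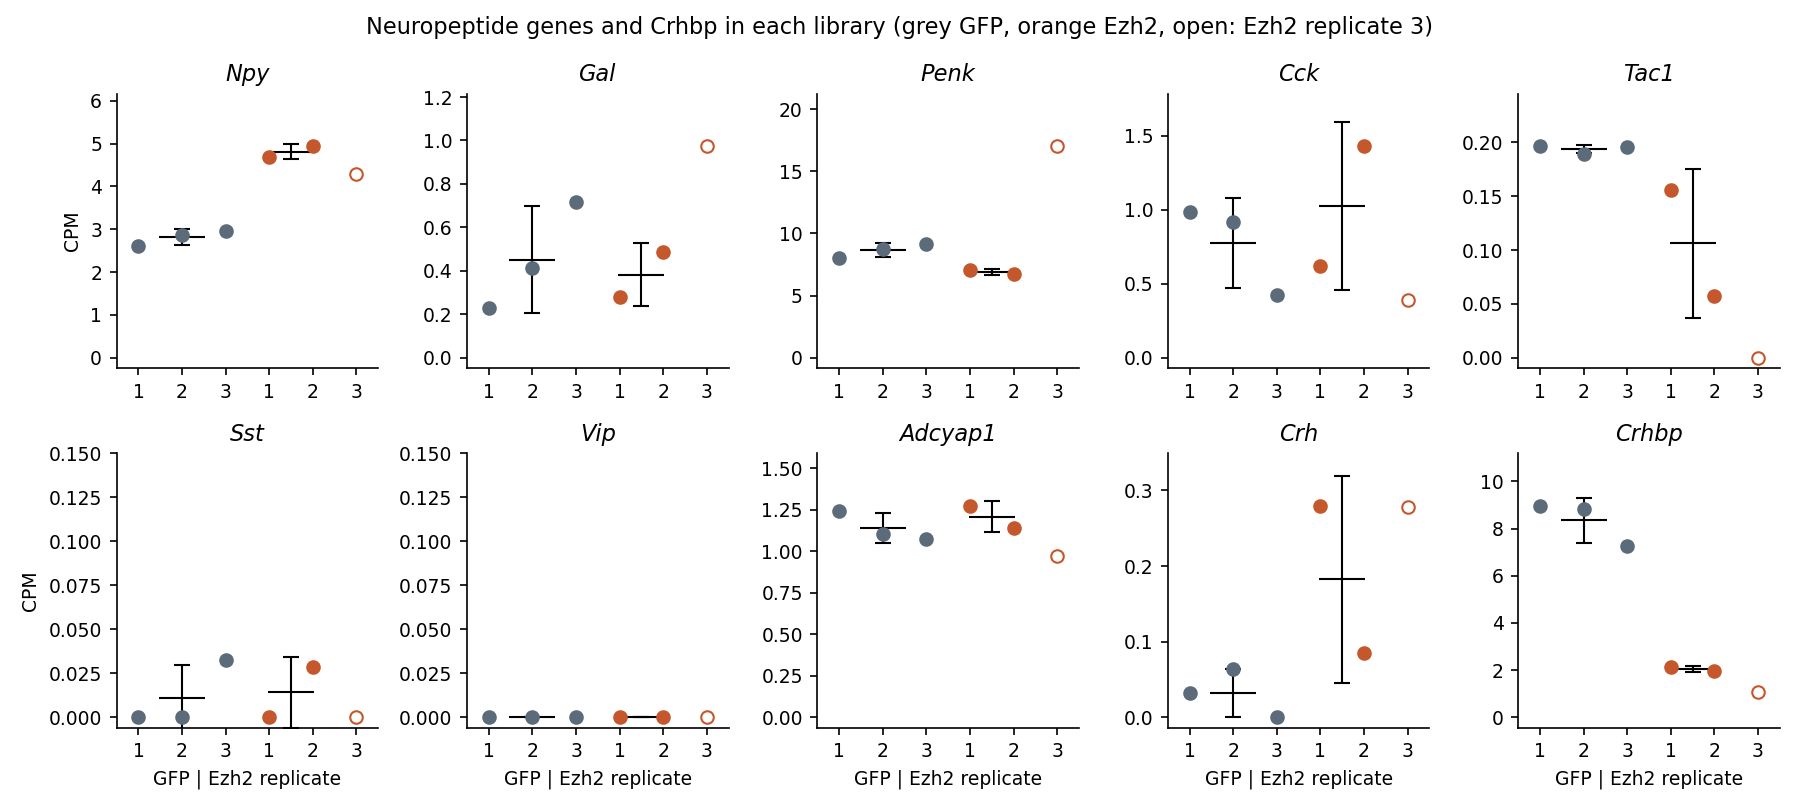
CPM of the 10 genes in each library, with the replicate number on the horizontal axis, GFP to the left and Ezh2 to the right. Horizontal bars give the mean and error bars the SD of the 3 GFP libraries and of Ezh2 replicates 1 and 2, and the open point is Ezh2 replicate 3. *Crhbp* falls from 7.26 or more to 2.14 or less, and *Npy* rises from 2.96 or less to 4.28 or more.

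*Penk*, which encodes the enkephalin precursor, gave a direction that hung on 1 library. Its counts were 246, 278 and 281 in GFP replicates 1 to 3 (8.05, 8.78 and 9.14 CPM), and 227, 236 and 612 in Ezh2 replicates 1 to 3 (7.05, 6.74 and 17.0 CPM). Ezh2 replicates 1 and 2 were below all GFP libraries and Ezh2 replicate 3 was above them. In the 5 libraries the log2 fold change was -0.32 ± 0.14 (SE; adjusted p 0.143, edgeR's quasi-likelihood test), and in all 6 it was 0.30 ± 0.36, with an adjusted p of 0.621. *Penk* is known to be expressed by activated and regulatory T cells as well as neurons. T cell markers summed to 624 to 667 CPM in the GFP libraries, 847 and 803 CPM in Ezh2 replicates 1 and 2 and 1431 CPM in Ezh2 replicate 3, and the regulatory T cell sum there is given above. Their part in the level of *Penk* was not tested. Exons of *Penk* overlap the antisense gene *A830012C17Rik*, which had 1 count in Ezh2 replicate 2 and none in the other libraries.

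**Figure D3:**
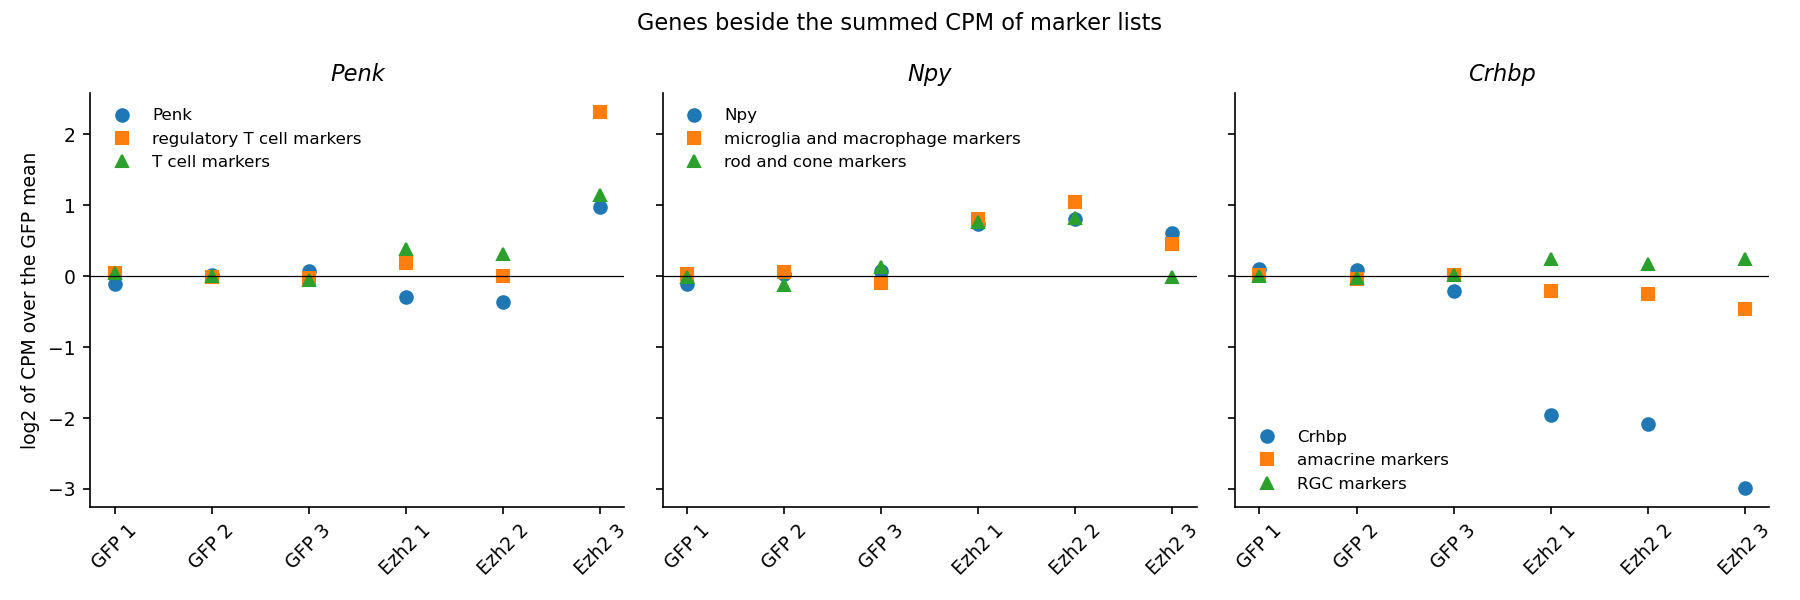
Log2 of the CPM over the GFP mean in each library for *Penk*, *Npy* and *Crhbp*, each beside the summed CPM of 2 marker lists. *Penk* and the regulatory T cell sum are both highest in Ezh2 replicate 3. *Crhbp* lies below its GFP mean by more than the amacrine sum does in every Ezh2 library.

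*Cck*, *Gal* and *Adcyap1* did not pass the test. *Cck*, the cholecystokinin gene, had 30, 29 and 13 counts in the GFP libraries and 20, 50 and 14 in the Ezh2 libraries, a spread within each group as wide as any difference between them (log2 fold change 0.42 ± 0.48, and 0.10 ± 0.54 with all 6 libraries). *Gal*, the galanin gene, a peptide induced in many neurons by axon injury, had 7, 13 and 22 counts against 9, 17 and 35. Its log2 fold change was -0.22 ± 0.63 in the 5 libraries and 0.42 ± 0.60 in all 6, and the groups overlapped. *Adcyap1* encodes PACAP, a peptide of intrinsically photosensitive RGCs. It had 38, 35 and 33 counts against 41, 40 and 35, with a log2 fold change of 0.09 ± 0.34, and 0.02 ± 0.26 with all 6 libraries. The adjusted p values of *Cck*, *Gal* and *Adcyap1* were 0.617, 0.865 and 0.898 by edgeR's quasi-likelihood test, and a change within these errors could not be detected.

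The remaining 3 genes had too few counts to pass the filter. *Tac1*, the substance P precursor gene, was counted 6 times in every GFP library and 5, 2 and 0 times in Ezh2 replicates 1 to 3. All Ezh2 libraries were below all GFP libraries, but the pooled ratio of 0.538 in Ezh2 replicates 1 and 2 had an interval of 0.190 to 1.35, and with Ezh2 replicate 3 the ratio was 0.350 (0.124 to 0.879). *Sst*, the somatostatin gene, had 1 count in GFP replicate 3 and 1 in Ezh2 replicate 2. *Vip* had 0 counts in all 6 libraries, which allows up to 0.0981 CPM in the shallowest. For *Sst* and *Vip* a change was not detectable at this depth. The direction of *Tac1* was the same in every Ezh2 library, on at most 6 counts each, and its adjusted p without a filter was 0.760 in the 5 libraries and 0.570 in all 6 (edgeR's quasi-likelihood test).

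Receptors of these peptides were then examined. Of 27 receptor genes, 12 passed the filter in the 5 libraries, of which 2 were called higher, *Crhr1* and *Vipr1*, and 0 lower. The shares over all tested genes were 2.45% higher and 1.27% lower. *Vipr1*, a receptor gene for VIP and PACAP, had 67, 54 and 57 counts in the GFP libraries and 142, 152 and 115 in the Ezh2 libraries, without overlap. Its log2 fold change was 1.20 ± 0.23 (SE; adjusted p 0.00166, edgeR's quasi-likelihood test), and with all 6 libraries 1.09 ± 0.22, with an adjusted p of 0.0309, which leaving out any 1 of these 5 libraries from the 6 raised to between 0.0717 and 0.166. The other gene of this receptor pair, *Vipr2*, was more abundant per length (8.17 against 0.331 CPM per kb in the GFP group) and went the other way, with 1140, 1128 and 1121 counts in the GFP libraries and 880, 1023 and 842 in the Ezh2 libraries, also without overlap. Its log2 fold change of -0.36 ± 0.08 (adjusted p 0.00422 by edgeR; -0.42 ± 0.09 and 0.0423 with all 6 libraries) passed the adjusted p but not the fold threshold, so it was not called. The PACAP receptor gene *Adcyap1r1* had 109, 101 and 105 counts against 132, 192 and 195, and was not called. Its log2 fold change was 0.51 ± 0.21 (adjusted p 0.113 by edgeR; 0.60 ± 0.19 and 0.11 with all 6 libraries). For *Npy*, the receptor genes were low: *Npy1r* had 13 to 20 counts in every library with a log2 fold change of 0.12 ± 0.54, *Npy2r* at most 3 counts and *Npy5r* none. The median log2 fold change was 0.15 over the 12 tested receptors and -0.0078 over all tested genes.

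Among other peptide precursors, 13 of 38 genes passed the filter and 11 had no count in any library. The prodynorphin gene *Pdyn* was expressed well above every member per length, at 20.1 CPM per kb in the GFP group. It had 1626, 1830 and 1948 counts in the GFP libraries and 1418, 1647 and 1322 in the Ezh2 libraries. The log2 fold change of *Pdyn*, -0.34 ± 0.08 (adjusted p 0.00677 by edgeR; -0.41 ± 0.10 and 0.0606 with all 6 libraries), did not reach the fold threshold. The 1 called gene was *Cartpt*, which encodes the CART peptide, a marker of direction-selective RGCs, with 30, 16 and 13 counts in the GFP libraries and 86, 101 and 56 in the Ezh2 libraries. Every Ezh2 library was above every GFP library, with Ezh2 replicate 3 the lowest of them. Its log2 fold change was 2.13 ± 0.36 (SE; adjusted p 0.000616, edgeR's quasi-likelihood test), and with all 6 libraries 1.92 ± 0.39, with an adjusted p of 0.0343, or 0.0762 to 0.178 with any 1 of the same 5 libraries left out of the 6. The list's median log2 fold change was -0.053. Its 1 call among 13 tested genes stood against 2.45% higher and 1.27% lower of all tested genes.

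All 20 genes of precursor processing and dense core vesicles passed the filter, 1 was called higher and 0 lower, with a median log2 fold change of -0.14. Over all tested genes, 2.45% were called higher and 1.27% lower. *Pcsk1*, a convertase gene, was low, with 45, 18 and 24 counts in the GFP libraries and 15, 16 and 0 in the Ezh2 libraries. Its log2 fold change of -1.01 ± 0.51 was not called (adjusted p 0.208 by edgeR; -1.59 ± 0.83 and 0.268 with all 6 libraries). The called gene was *Ptprn*, which encodes a membrane protein of dense core vesicles, with 176, 253 and 223 counts against 377, 383 and 217. Ezh2 replicate 3 lay within the GFP range, and the log2 fold change of 0.70 ± 0.15 (adjusted p 0.00345 by edgeR) became 0.48 ± 0.24 with all 6 libraries (adjusted p 0.257). Without GFP replicate 1 in the 5 libraries it was 0.58, under the fold threshold. Exons of *Ptprn* overlap the antisense gene *Gm28294*, which had at most 3 counts in any library. A further 4 genes passed the adjusted p in the lower direction without reaching the fold threshold in the 5 libraries, and none did with all 6. They were *Pcsk2*, a convertase gene (log2 fold change -0.56), *Scg2*, a granin gene (-0.40), *Cadps*, a vesicle priming gene (-0.27), and *Rab27b* (-0.30). The summed level of the 20 genes was 876 to 910 CPM in the GFP libraries, 836 and 854 CPM in Ezh2 replicates 1 and 2 and 635 CPM in Ezh2 replicate 3.

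All 15 peptidases that cut neuropeptides outside cells or in their cytosol passed the filter, 1 was called higher and 0 lower, with a median log2 fold change of 0.082. Among all tested genes, 2.45% were called higher and 1.27% lower. *Enpep*, which encodes glutamyl aminopeptidase, had 68, 33 and 61 counts in the GFP libraries and 96, 130 and 113 in the Ezh2 libraries, without overlap. Its log2 fold change was 0.95 ± 0.30 (SE; adjusted p 0.0423, edgeR's quasi-likelihood test), and with all 6 libraries 0.94 ± 0.30, with an adjusted p of 0.109. Without GFP replicate 2, GFP replicate 3, Ezh2 replicate 1 or Ezh2 replicate 2 the adjusted p in the 5 libraries was 0.131, 0.0622, 0.0624 or 0.275, the last 2 with 1 Ezh2 library and the spread of the GFP group. *Anpep*, which encodes aminopeptidase N, had 316, 341 and 378 counts against 515, 598 and 592, without overlap. Its log2 fold change of 0.58 ± 0.11 (adjusted p 0.00172 by edgeR) lay just under the fold threshold in the 5 libraries, and with all 6 it was called at 0.61 ± 0.11 (adjusted p 0.0268), so the 1 peptidase called was *Enpep* in the first fit and *Anpep* in the second. *Ecel1* passed the adjusted p only (0.48).

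**Figure D4:**
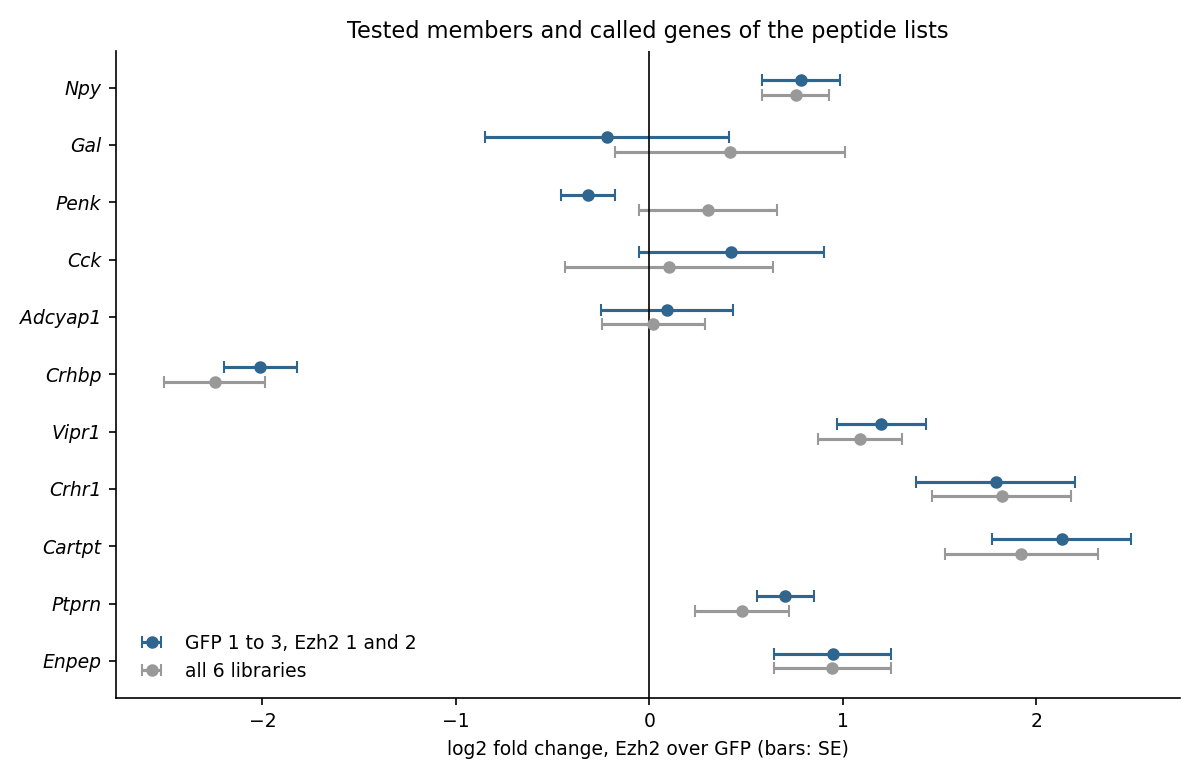
Log2 fold change of Ezh2 over GFP with its SE for the 6 tested members and the 5 called genes of the peptide lists, in the 5 libraries (blue) and all 6 (grey). *Crhbp* lies alone at the left at about -2.01, the called listed genes lie at 0.70 or above in blue, and *Penk* and *Gal* change sign between the fits.

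Genes with the most similar pattern were sought for the 3 members with at least 50 counts on average, as Pearson's r of log2 CPM over the 6 libraries among 13772 genes. *Adamts12*, *Hspa12a* and the pseudogene *Gm15459* were closest to *Crhbp* (r of 0.9995, 0.999 and 0.998). *Tmem268*, *Siglec1* (a sialic acid receptor gene of macrophages) and *Cerk* were closest to *Npy* (r of 0.998, 0.996 and 0.995). For *Penk* they were *Gm37206*, *Hus1* and *Slc25a26* (r of 0.998, 0.996 and 0.996), 3 genes that were also highest in Ezh2 replicate 3. With 6 points that share 2 groups and 1 library apart, values this close to 1 describe the libraries and are no test.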

How the data were processed

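RNA-Seq was made from CD90.2-positive sorted retinal cells as stranded total RNA libraries. Raw read counts, one row for each Ensembl gene, were deposited by the authors. The submitters' processing notes name STAR 2.7.0d and GRCm38; the counting program, annotation release and strand setting were not given in the sources used here. Of the 55573 identifiers, 55480 matched GENCODE M21, which gave symbols, exon lengths and coordinates. Promoter sequences came from RefSeq (GRCm38.p6), which matched 8 of the 10 genes.

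The study excluded 1 Ezh2 library that clustered apart. That this was Ezh2 replicate 3 is inferred from the columns of its heatmap. Genes passing filterByExpr were scaled with TMM and tested with the two-sided quasi-likelihood F test of edgeR 4.0.16 (default settings, R 4.3.3), with Benjamini-Hochberg adjustment over all tested genes. Standard errors come from the F statistic, and intervals of pooled ratios are exact and cover counting error only. Alternatives used DESeq2 1.42.0 and limma-voom 3.58.1. The robust option of the edgeR fit and the unfiltered fit of all 6 libraries were added after the data were seen. Fits were tested on simulated counts. Named listed genes are those called in the main fit, and other listed genes were added after their values were seen. Members and lists were chosen with earlier results of these data known. Count columns without a sample numbered 0.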

Additional observations from a re-analysis of the deposited data

Results flagged for a closer look

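*Penk* stood at 17.0 CPM in Ezh2 replicate 3, a library outside the main comparison, against 9.14 CPM in the highest GFP library. The exact counting intervals, 15.7 to 18.4 and 8.11 to 10.3 CPM, did not overlap, and no other member had an interval in that library above that of every other library. The cause was not tested.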

How the results depend on the processing

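The fall of *Crhbp* kept its direction and its call under all 22 alternatives in which it was fitted (log2 fold change -2.41 to -1.96, highest adjusted p 0.049). *Npy* kept its direction under all 22 and its call under 14 (0.71 to 0.83, adjusted p 0.00853 to 0.187). Robust estimation in the edgeR fit, chosen after seeing the data, made *Edn2* a further called precursor gene (2 called higher) and changed no call of a member. The counts of members and listed genes are so small that most shifts below are of 1 gene.

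Genes called higher and lower numbered 316 and 160 with all 6 libraries, 140 and 72 with glmTreat, 1899 and 1431 with no fold threshold, 186 and 88 with the replicate block in all 6 libraries, and 320 higher with robust estimation in all 6. Members called higher became 0 with glmTreat, with the block in all 6 libraries and with no filter in all 6. Receptors called higher became 0 with glmTreat and the block in all 6, and 1 with a filter at 50 counts on average. Other precursors called higher became 2 with limma-voom, 3 with no filter and 0 with the filter at 50 counts. Processing genes called higher became 0 with glmTreat and with all 6 libraries, alone or with the block, no filter or robust estimation. Peptidases called higher became 2 with the replicate block and with limma-voom, 0 with glmTreat and the block in all 6, and 3 with no fold threshold. The called peptidase was *Anpep* without GFP replicate 3 or Ezh2 replicate 1 and *Ecel1* without GFP replicate 2. Genes called lower became 1 for receptors and precursors and 4 for processing genes with no fold threshold, and 1 for processing genes with the block. Leaving out 1 library in turn gave 63 to 518 genes called higher and 30 to 279 lower, members higher 0 to 1, receptors 0 to 2, precursors 0 to 2, processing genes 0 to 1 higher and 0 to 1 lower, and peptidases 0 to 1.

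Log2 fold changes that changed sign belonged to members that were never called. *Penk* was 0.30 in all 6 libraries (with or without robust estimation and with no filter) and 0.15 with the block there. *Gal* was 0.42, 0.41 and 0.42 in those fits, 0.27 with the block and 0.38 with the block in all 6. Leaving out 1 library moved *Penk* between -0.37 and 0.54, *Gal* between -0.69 and 0.91, *Cck* between -0.58 and 0.90 and *Adcyap1* between -0.053 and 0.16. The cause was not tested. Replicate numbers were not treated as pairs in the main fit. Deviations from the group means correlated at -0.0051, -0.020 and -0.010 within replicate numbers 1, 2 and 3. The Ezh2 mean used there included Ezh2 replicate 3, which lay apart, so these values cannot show whether libraries were paired. Levels below 0.0834 to 0.0981 CPM could not be told from 0.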
